A study of Mus musculus with 20 samples.

Results

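The genes described here are 10 immediate early genes outside the Fos and Jun families: Egr1, Egr2, Egr3, Nr4a1, Nr4a2, Nr4a3, Ier2, Dusp1, Atf3 and Klf4. They were chosen by symbol, and each has 1 row among the 51789 genes of the deposited table. A test was possible for 9 of the 10, because Nr4a3 reached 1 FPKM (fragments per kilobase of transcript, relative to the mapped fragments of the library) in only 4 of the 20 libraries, and the test required 5. Egr3 passed that filter with 6 libraries and Nr4a2 with 10, all from the annulus fibrosus, and Egr2 with 14, most of them from there. The other members were at or above 1 FPKM in all 20.

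Immediate early genes are transcribed without new protein synthesis when a cell receives a growth factor, a cytokine, a mechanical load or a stress. Signals reach their promoters through kinases of the ERK and p38 pathways, through serum response factor with its ETS-family partners at CArG boxes, and through CREB at cAMP response elements. Their transcripts are short-lived, so that a level reflects recent signalling. The products are mostly transcription factors: the EGR zinc fingers, the orphan nuclear receptors of the NR4A family, the stress factor ATF3 and the zinc finger KLF4. DUSP1 is a phosphatase that switches off the same MAP kinases.

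RNA came from 2 parts of the intervertebral disc: its soft centre, the nucleus pulposus (NP), and the layered outer ring, the annulus fibrosus (AF). All mice were BL6 animals aged 24 months that had been given intraperitoneal injections each week from the age of 18 months for 6 months. The vehicle arm received DMSO, and the other arm received MDL-800, a small-molecule activator of the deacylase SIRT6, in the same amount of DMSO. There were 5 libraries in each of 4 groups: NP vehicle (libraries 1, 2, 3, 5 and 6), NP MDL-800 (15, 18, 19, 20 and 22), AF vehicle (8, 9, 10, 12 and 13) and AF MDL-800 (25, 27, 28, 29 and 30). The numbers are those of the sample labels, and lists of 5 values below follow this order. Untreated and younger mice were not analysed here. The labels do not say which libraries come from separate mice, so the p-values measure the spread between these libraries.

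Depth, estimated from the steps of low values, was 12600000 to 22000000 fragments per library, rounded. Summed NP markers were 25620 to 32850 FPKM in NP and 2494 to 15090 FPKM in AF, although the NP marker Car12 was under 1 FPKM in every NP library. AF vehicle library 9 had the highest NP marker sum and the lowest AF marker sum of the AF libraries. Libraries also differed in how their values depended on GC content, measured as the slope of a gene's log2 deviation from its mean over all libraries per 10 percentage points of GC. The slope was -0.28 in NP vehicle libraries 1 and 2 and -0.24 in AF vehicle library 12, against -0.11 to 0.14 in the others. In NP the arms did not overlap, at -0.28 to -0.01 with vehicle and 0.02 to 0.09 with MDL-800. The members have a GC content of 47.9% to 60.9% (Ier2), with a median of 53.1% against 49.3% over the tested genes.

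RefSeq promoter windows (build GRCm38.p6) were matched for 7 of the 10 members: Egr2, Nr4a1, Nr4a2, Nr4a3, Dusp1, Atf3 and Klf4. They are shown for Egr2 and Nr4a2, which were lower in NP than in AF, and for Nr4a1, which was similar in both. Each is given as the 250 bases before an annotated start, 5′ to 3′ on the gene's strand. Egr2 has 5 annotated starts, and 1 window that overlaps no annotated exon and holds both motifs is given. Capitals mark CArG boxes and the short form of the cAMP response element, TGACG, read on both strands (CGTCA on the strand shown).
Egr2, chr10:67537619-67537868, plus strand: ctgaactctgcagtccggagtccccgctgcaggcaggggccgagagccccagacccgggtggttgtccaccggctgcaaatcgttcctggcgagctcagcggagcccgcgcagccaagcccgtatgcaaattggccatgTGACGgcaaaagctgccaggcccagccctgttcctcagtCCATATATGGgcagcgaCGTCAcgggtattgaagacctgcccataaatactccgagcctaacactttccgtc
Nr4a1, chr15:101266596-101266845, plus strand: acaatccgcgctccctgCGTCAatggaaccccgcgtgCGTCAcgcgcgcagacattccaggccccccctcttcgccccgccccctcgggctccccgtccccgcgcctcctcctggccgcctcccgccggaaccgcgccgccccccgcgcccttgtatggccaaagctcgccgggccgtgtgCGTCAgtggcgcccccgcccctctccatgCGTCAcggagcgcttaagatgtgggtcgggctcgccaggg
Nr4a2, chr2:57124004-57124253, minus strand: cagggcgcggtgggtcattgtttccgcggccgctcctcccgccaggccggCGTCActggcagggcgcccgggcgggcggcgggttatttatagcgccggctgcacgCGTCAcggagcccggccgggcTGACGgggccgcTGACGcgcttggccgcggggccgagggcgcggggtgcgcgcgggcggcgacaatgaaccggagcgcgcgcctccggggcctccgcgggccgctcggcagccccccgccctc
The Egr2 window holds a CArG box 72 bases before the start. A box occurs in 4 of the 5 Egr2 windows, but windows that overlap the one shown hold the same box. Of all 32851 windows of this length in the table, 1.47% hold a CArG box, and Egr2 was the only one of the 7 matched members with one. The short form TGACG occurred in a window of all 7 members and in 17.8% of all windows. Nr4a1 and Nr4a2 each held 4 short forms, as did Nr4a3. The EGR motif GCGNGGGCG (both strands, 4.7% of all windows) had 1 match in Nr4a1, 1 in Nr4a2 and 2 in Klf4. The full element TGACGTCA, which contains the short form, was found in Dusp1 at 143 bases before the start and in 1.55% of all windows. No member window held the AP-1 motif TGANTCA, found in 6.75% of all windows. A match is a run of letters and was not tested as a binding site.

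EGR proteins bind GC-rich sites as zinc finger factors, and the NAB corepressors limit their activity. Egr1 (ENSMUSG00000038418, chr18:34859823-34864984, plus strand) had the highest mean of the 10 in NP and the second highest in AF. It stood at 13.8, 53.7, 137, 67.0 and 82.4 FPKM in the 5 NP vehicle libraries and at 189, 224, 118, 71.8 and 100.5 FPKM in the 5 NP MDL-800 libraries. The AF values were 27.1, 20.0, 111, 26.5 and 45.2 FPKM with vehicle and 62.1, 114, 50.8, 119 and 36.5 FPKM with MDL-800. Within NP vehicle the highest library was 9.89 times the lowest, library 1 being the low one, and all 4 groups overlapped.

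Egr2 (ENSMUSG00000037868, chr10:67535475-67542188, plus strand), known for its role in myelinating glia and in lymphocytes, was low in NP and present in AF. NP vehicle libraries gave 0.107, 1.17, 1.41, 0.177 and 0.563 FPKM, and NP MDL-800 libraries gave 1.30, 1.64, 0.807, 0.222 and 0.247 FPKM. In AF the values were 1.68, 1.57, 4.79, 3.30 and 4.35 FPKM with vehicle and 3.21, 4.62, 1.99, 4.75 and 2.83 FPKM with MDL-800. Every AF library of an arm was above every NP library of that arm. Means were 0.684 ± 0.583 and 0.844 ± 0.631 FPKM in NP against 3.14 ± 1.48 and 3.48 ± 1.19 FPKM in AF (SD, n = 5 each).

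Egr3 (ENSMUSG00000033730, chr14:70077203-70082614, plus strand), a close relative induced by antigen receptors and growth factors, was near the detection limit in NP. It was at 0.0429, 0.320, 0.253, 0.207 and 0.257 FPKM in NP vehicle libraries and at 0.607, 0.789, 0.969, 0.201 and 0.165 FPKM in NP MDL-800 libraries. AF vehicle libraries held 1.00, 0.405, 0.782, 0.409 and 1.98 FPKM, and AF MDL-800 libraries held 1.09, 1.09, 1.20, 2.41 and 1.33 FPKM. NP lay below AF in each arm without overlap. The NP vehicle values rest on an estimated 3 to 23 fragments per library and the AF vehicle values on 34 to 166.

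The NR4A receptors bind DNA without a known physiological ligand and are induced by cAMP, calcium and inflammatory signals. Nr4a1 (ENSMUSG00000023034, chr15:101254269-101274795, plus strand) had similar levels in NP and AF. Its values were 3.41, 8.95, 26.3, 9.14 and 14.4 FPKM in NP vehicle and 26.9, 31.7, 17.8, 14.7 and 18.8 FPKM in NP MDL-800. In AF it was at 10.9, 12.6, 26.3, 9.88 and 13.3 FPKM with vehicle and 17.5, 22.4, 14.2, 44.7 and 17.1 FPKM with MDL-800. The ranges of all 4 groups overlapped.

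Nr4a2 (ENSMUSG00000026826, chr2:57106830-57124003, minus strand), the family member best known from dopaminergic neurons, was almost confined to AF among the 2 tissues measured. NP libraries held 0.236, 0.279, 0.334, 0.138 and 0.375 FPKM with vehicle and 0.0697, 0.284, 0.353, 0.106 and 0.154 FPKM with MDL-800, or an estimated 5 to 28 fragments each. AF libraries held 3.67, 0.975, 4.38, 4.21 and 3.22 FPKM with vehicle and 3.29, 3.69, 2.54, 3.85 and 2.61 FPKM with MDL-800. The lowest AF library, vehicle library 9, was still above every NP library. Nr4a3 (ENSMUSG00000028341, chr4:48045153-48086447, plus strand) ranged from 0.0214 to 0.324 FPKM in NP vehicle and 0.0106 to 0.0896 FPKM in NP MDL-800. In AF it ranged from 0.347 to 1.21 FPKM with vehicle and 0.484 to 1.23 FPKM with MDL-800. Its NP values rest on an estimated 1 to 41 fragments, and no NP library reached the AF library with the lowest value of the same arm.

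Ier2 (ENSMUSG00000053560, chr8:84661331-84662852, minus strand) is a short gene with 1 annotated transcript that encodes a small nuclear protein. It stood at 2.43, 3.23, 29.1, 20.1 and 19.4 FPKM in NP vehicle and 48.3, 38.7, 27.3, 30.0 and 31.3 FPKM in NP MDL-800. Its AF values were 16.6, 9.27, 26.5, 5.43 and 14.3 FPKM with vehicle and 19.8, 13.0, 15.5, 27.3 and 21.2 FPKM with MDL-800. The 2 lowest values, 2.43 and 3.23 FPKM, belong to NP vehicle libraries 1 and 2, the pair with the GC slope of -0.28. The lowest AF values of each arm belong to the libraries with the lowest slope of that arm, 12 and 27; the part of this in the Ier2 values was not tested.

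Atf3 (ENSMUSG00000026628, chr1:191170296-191218039, minus strand) is a leucine zipper factor of the ATF/CREB family that is raised by many stresses. NP vehicle libraries held 7.44, 32.7, 78.2, 6.84 and 23.9 FPKM and NP MDL-800 libraries 72.9, 48.2, 53.5, 33.9 and 52.4 FPKM. AF libraries held 6.56, 15.5, 47.0, 9.28 and 13.6 FPKM with vehicle and 16.5, 49.0, 15.3, 36.7 and 18.5 FPKM with MDL-800. NP vehicle library 3 was above every other library, treated ones included. Dusp1 (ENSMUSG00000024190, chr17:26505590-26562128, minus strand) ranged from 36.2 to 108 FPKM in NP vehicle, 50.8 to 111 in NP MDL-800, 57.5 to 180.4 in AF vehicle and 68.3 to 170.3 in AF MDL-800, and had the highest mean of the 10 in AF. Klf4 (ENSMUSG00000003032, chr4:55527143-55532466, minus strand) ranged from 6.71 to 30.9 FPKM in NP vehicle, 19.3 to 42.3 in NP MDL-800, 14.9 to 51.9 in AF vehicle and 23.01 to 44.4 in AF MDL-800.

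In the order of mean FPKM, which is per length, 6 members (Egr1, Dusp1, Atf3, Klf4, Ier2 and Nr4a1) formed an upper set in every group. Neighbours within this set overlapped in range in all 4 groups. A gap without overlap separated the lowest of them from the other 4 members, which were Egr2, Egr3, Nr4a2 and Nr4a3. Between the lower 4 the ranges of neighbours overlapped, apart from Nr4a2 and Egr3 in AF MDL-800.

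**Figure D1:**
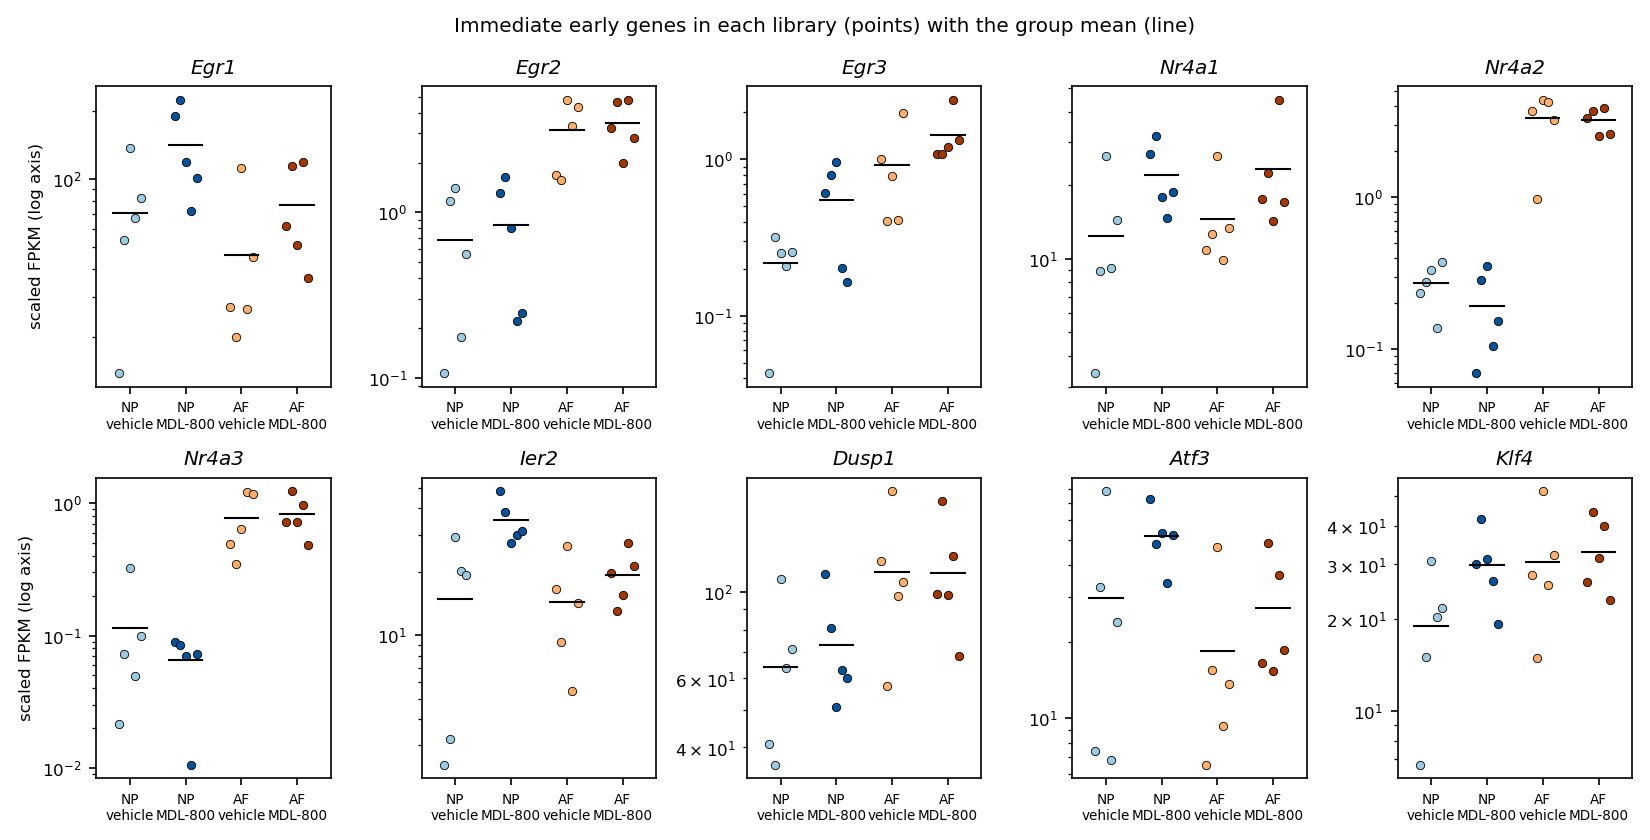
Scaled FPKM of each member (log axis, 1 panel per gene, axes differ) in the 5 libraries of each group, with the group mean as a line. Egr2, Egr3, Nr4a2 and Nr4a3 are lower in all NP libraries than in all AF libraries of the same arm, while the ranges of Egr1, Nr4a1, Dusp1 and Klf4 overlap between tissues.

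The first comparison asked which members differ between the disc compartments of old vehicle mice. In vehicle mice Nr4a2, Egr2 and Egr3 were called lower in NP than in AF, and none of the 9 tested members was called higher. Nr4a2 and Egr3 entered the test only through their AF values, and Egr2 would not have passed the filter on its NP libraries alone. A lower NP level was thus built into the selection of all 3, and the count of 3 is given as a description. Over all tested genes 55.7% were called in this comparison, 33.9% lower in NP and 21.8% higher. The mean of Nr4a2 was 12.1-fold lower in NP than in AF, with a log2 difference of -1.67 ± 0.25 (SE, limma on log2(scaled FPKM + 1), adjusted p = 0.000241). Egr2 was 4.59-fold lower in mean, at -1.29 ± 0.30 (adjusted p = 0.00395), and Egr3 4.24-fold lower, at -0.60 ± 0.20 (adjusted p = 0.0251). The difference on this scale understates the change of genes as low as these. Nr4a3 had a mean 6.82-fold lower in NP, and only the fit without the filter on low values tested it (-0.65, adjusted p = 0.0096). For these 4 genes all NP libraries lay below all AF libraries, as was the case for 25.9% of all tested genes with vehicle and 30.5% with MDL-800.

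Dusp1 was at -0.82 ± 0.34 (adjusted p = 0.0599), and it passed the threshold without NP vehicle library 3 (adjusted p = 0.0199) or without AF vehicle library 9 (adjusted p = 0.0187), without scaling (adjusted p = 0.0493) and with all 4 groups in the fit (adjusted p = 0.0333). Egr1 was at 0.58 ± 0.59, Atf3 at 0.46 ± 0.67, Klf4 at -0.70 ± 0.39, Nr4a1 at -0.38 ± 0.43 and Ier2 at -0.28 ± 0.64, all with an adjusted p of at least 0.15. The Ier2 value lies above 0 under quantile normalization (0.03) and upper quartile scaling (0.05). The call of Egr3 was lost under quantile normalization (-0.05, adjusted p = 0.851), with the GC trend removed (-0.45, adjusted p = 0.0594), without NP vehicle library 1 (adjusted p = 0.058) and without AF vehicle library 8 (adjusted p = 0.0535).

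The same comparison in MDL-800 mice called 5 of 9 members, 3 lower in NP and 2 higher, against 62.8% of all tested genes, with 37.2% lower and 25.6% higher. Lower in NP were Nr4a2 (-1.81 ± 0.13, adjusted p = 1.91e-06), Egr2 (-1.31 ± 0.26, adjusted p = 0.00129) and Egr3 (-0.65 ± 0.19, adjusted p = 0.0128). Here too Nr4a2 and Egr3 entered the test only through their AF values, and Egr2 needed its AF libraries to pass the filter. The calls of these 3 genes are therefore given as a description. Ier2 was 1.81-fold higher in mean in NP (0.84 ± 0.20, adjusted p = 0.00439), with all 5 NP libraries above all 5 AF libraries, as for 18.5% of all genes. Atf3 was 1.92-fold higher (1.03 ± 0.32, adjusted p = 0.0172), with 3 of 5 NP libraries above all AF libraries. Fitting all 4 groups together, which takes in the wider spread of the vehicle arm, left Ier2 at an adjusted p of 0.161 and Atf3 at 0.121. Egr3 was at -0.08 (adjusted p = 0.725) under quantile normalization. Egr1 was 1.84-fold higher in mean in NP (0.90 ± 0.39, adjusted p = 0.0636) and passed the threshold under quantile normalization (adjusted p = 0.0444) and upper quartile scaling (adjusted p = 0.0146), and without NP library 20 (adjusted p = 0.0301), AF library 27 (0.0359) or AF library 29 (0.0331). Dusp1 (-0.59 ± 0.26, adjusted p = 0.0655) passed it without scaling (adjusted p = 0.0399), without NP library 15 (0.0221) and without AF library 30 (0.021). Nr4a1 (-0.01 ± 0.30) and Klf4 (-0.14 ± 0.22) were near 0, and both lie above 0 under quantile normalization and upper quartile scaling.

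These scalings matter between tissues: they moved the median log2 difference of all tested genes by 0.28 to 0.31 and turned the share of calls that were lower in NP in vehicle mice from 60.8% to 37.7% and 38.5%, respectively. Nr4a2 and Egr2 remained called lower in NP in both arms under every alternative run. Neither would have passed the filter without AF libraries, so for both genes this is a description and no support for a lower NP level. Markers of other cells moved with the tissue. All 8 macrophage markers were called lower in NP in both arms, with sums of 68.5 to 387 FPKM in NP and 1068 to 2607 FPKM in AF. All 7 endothelial markers were lower too, with sums of 1.74 to 8.76 FPKM in NP, where Tek, Tie1, Emcn and Kdr were under 1 FPKM in every library, and 50.4 to 117 FPKM in AF. Markers under 1 FPKM in every NP library passed the filter only through AF libraries, so their calls are given as a description. Neutrophil markers summed to 189.8 to 3090.0 FPKM in NP and 6082 to 32750.0 FPKM in AF. Skeletal muscle, red blood cell, B and plasma cell, bone, fat and Schwann cell markers were also lower in NP, with 5 to 9 called per list and none called higher. The part of these cells in the AF levels of Nr4a2, Nr4a3, Egr2 and Egr3 was not tested, and in bulk tissue fewer cells of a type and less RNA per cell cannot be told apart.

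**Figure D2:**
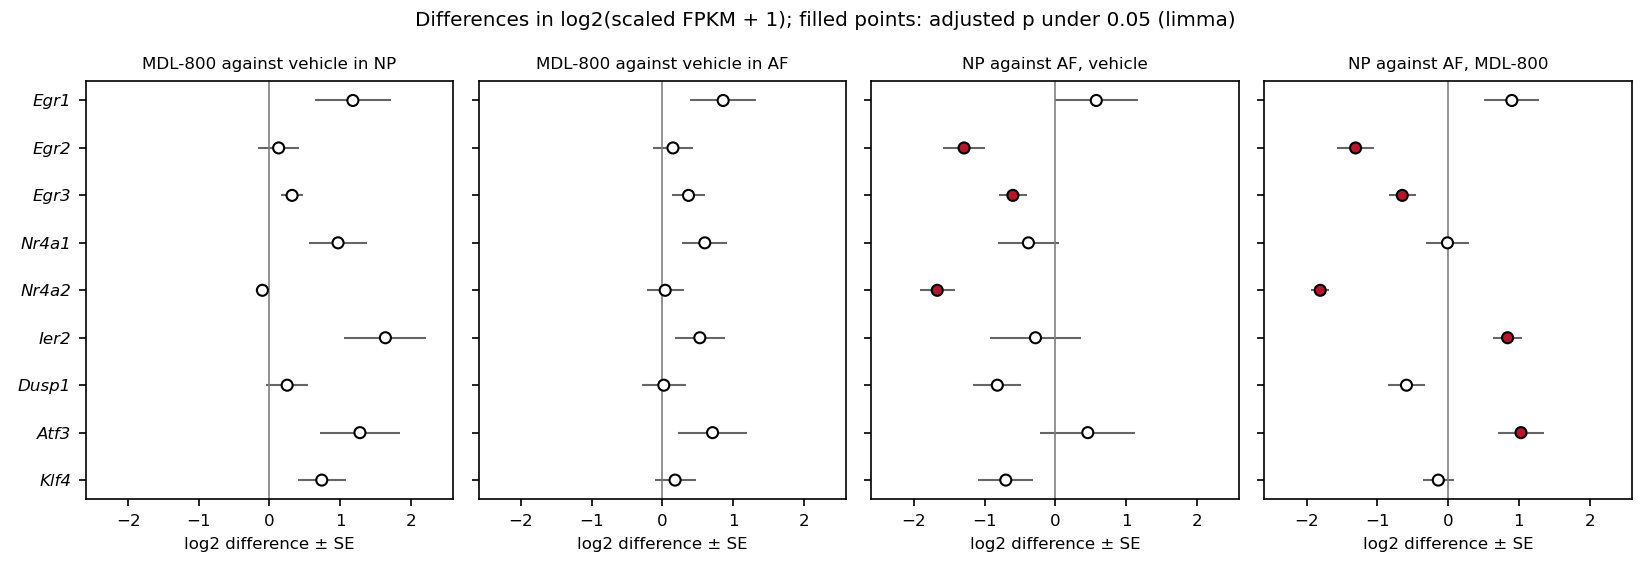
Difference in log2(scaled FPKM + 1) of the 9 tested members in 4 comparisons (points, with bars of 1 SE from limma, n = 5 libraries a group). Filled points, with an adjusted p under 0.05, occur only in the 2 panels of NP against AF, where Nr4a2, Egr2 and Egr3 lie below 0 in both arms and Ier2 and Atf3 lie above 0 with MDL-800.

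A ratio between 2 members of a family within a library does not change with the scaling of that library; this comparison was chosen after the data were seen, for 4 pairs of genes in 4 comparisons. The Egr1 to Egr2 ratio was 46.1 to 377 in NP vehicle libraries (median 129) and 8.04 to 23.2 in AF vehicle libraries (median 12.7). With MDL-800 it was 136 to 407 in NP (median 147) and 12.9 to 25.6 in AF (median 24.6). The Nr4a1 to Nr4a2 ratio was 14.4 to 78.8 in NP vehicle (median 38.3) and 2.34 to 12.9 in AF vehicle (median 4.13). Its values with MDL-800 were 50.4 to 386 in NP (median 122) and 5.32 to 11.6 in AF (median 6.07). Egr1 over Egr3 and Nr4a1 over Nr4a3 were likewise higher in every NP library than in every AF library of the same arm. The denominators are the genes already described as lower in every NP library, so these ratios restate that pattern and are given without a test.

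Between arms of NP, Nr4a1 over Nr4a3 was 252 to 1391 with MDL-800 (median 299.9) and 81.2 to 185.4 with vehicle (median 146), and Nr4a1 over Nr4a2 overlapped between arms. These values rest on an estimated 5 to 28 fragments of Nr4a2 and 1 to 41 of Nr4a3 per NP library, and the highest ratio, 1391, on 1 fragment in library 20.

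**Figure D3:**
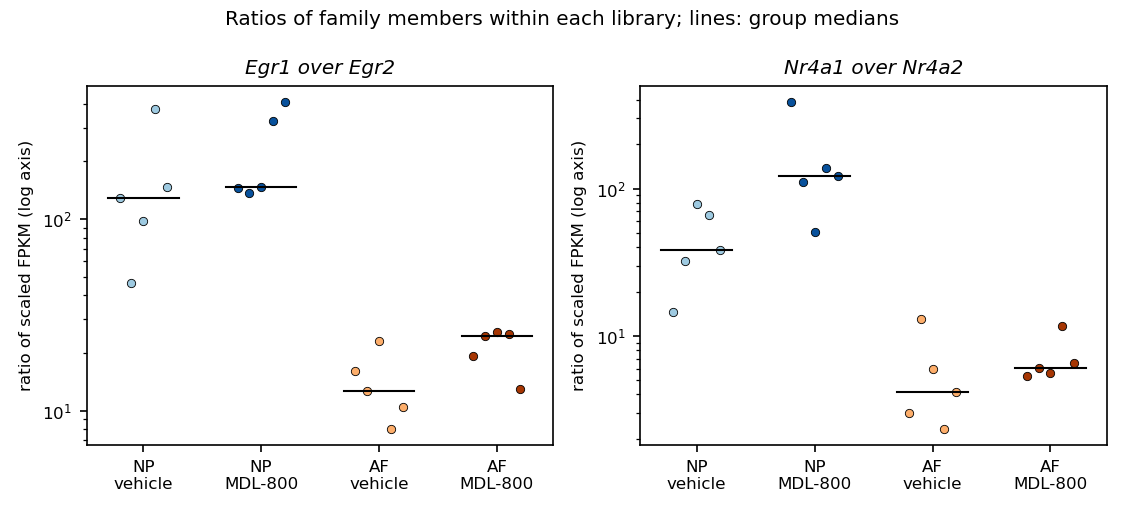
Ratio of scaled FPKM of Egr1 to Egr2 and of Nr4a1 to Nr4a2 in each library (points, log axes) with group medians (lines). In both panels all NP libraries of an arm lie above all AF libraries of that arm.

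The second comparison asked what MDL-800 changed in NP. None of the 9 tested members was called by limma, against 0.25% of all tested genes, and 3 had an unadjusted p under 0.05, all higher with MDL-800, against 14.1% of all genes, 9.11% being higher. Those 3 were Ier2 (1.64 ± 0.58, adjusted p = 0.231), Atf3 (1.28 ± 0.57, adjusted p = 0.349) and Nr4a1 (0.97 ± 0.41, adjusted p = 0.327). Mean Egr1 was 141 ± 63.3 FPKM with MDL-800 and 70.7 ± 44.8 FPKM with vehicle (1.18 ± 0.54, adjusted p = 0.357). Klf4 was at 0.74 ± 0.34, Egr3 at 0.32 ± 0.15, Dusp1 at 0.25 ± 0.30, Egr2 at 0.13 ± 0.29 and Nr4a2 at -0.10 ± 0.09. The median over the 9 was 0.74, against -0.03 over all tested genes, and 8 of 9 were above 0, as were 42.6% of all genes. The members varied together from library to library, as described below, so these counts are no independent observations.

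The size of these differences leaned on the vehicle libraries. Without NP vehicle library 1, Egr1 was at 0.69, Ier2 at 1.21, Nr4a1 at 0.63, Klf4 at 0.43 and Atf3 at 0.94. Without NP vehicle library 3 the same genes were at 1.49, 1.99, 1.28, 0.94 and 1.75. With the GC trend of each library removed, Ier2 was at 1.24, Egr1 at 0.95, Nr4a1 at 0.76 and Klf4 at 0.64. Atf3 (1.26), Egr3 (0.32) and Egr2 (0.13) hardly moved when the GC trend was removed. The 3 NP vehicle libraries other than 1 and 2 held Ier2 at 19.4 to 29.1 FPKM, and the MDL-800 libraries at 27.3 to 48.3 FPKM. None of the 9 was called in any of these fits.

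In AF, MDL-800 called none of the 9 members, as it called 0.0% of all genes (limma), and no member had an unadjusted p under 0.05, which 1.65% of all genes had. All 9 differences were above 0, as were 52.6% of all genes, with a median of 0.37. Egr1 was highest at 0.86 ± 0.47, followed by Atf3 (0.71 ± 0.49), Nr4a1 (0.60 ± 0.32) and Ier2 (0.53 ± 0.35), all with an adjusted p of 1.0. Dusp1 (0.02 ± 0.31) and Nr4a2 (0.04 ± 0.26) were nearest to 0. Dusp1 falls just below 0 with the GC trend removed, and without AF vehicle library 9 both turn negative (-0.19 and -0.22), as does Klf4 (-0.04). The difference between the NP and AF effects was not called for any of the 9 members (limma interaction contrast, adjusted p of 1.0 for each), nor for any gene (0.0%), and no member had an unadjusted p under 0.05 there, against 3.73% of all genes. The largest was Ier2, at 1.11 ± 0.72 more in NP. In simulated data of this size with a log2 change of 1, 137 of 200 altered genes were called between arms of NP. For the difference of effects it was 91 of 200, so changes of that size can be missed. The altered genes were drawn at random from all tested genes. Most members spread more within groups than the median tested gene, so these rates do not apply to the members.

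The members spread widely among libraries of 1 group. In NP vehicle the median SD of log2(scaled FPKM + 1) was 0.77 over the 9 tested members and 0.22 over all tested genes. Ier2 (1.46), Atf3 (1.41) and Egr1 (1.20) were among the most variable genes there, with an SD above that of 98.8%, 98.7% and 98.2% of tested genes. The SD of 7 of 9 members was above the upper quartile of all genes in NP vehicle, of 8 in NP MDL-800, of 9 in AF vehicle and of 4 in AF MDL-800. The median SD was 0.40 in NP MDL-800, 0.60 in AF vehicle and 0.40 in AF MDL-800; whether the spread differs between arms was not tested. Of the AP-1 genes, 4 also spread widely in NP vehicle, with an SD of 1.73 for Fos, 1.73 for Fosb, 1.19 for Junb and 0.72 for Jun. Jund ranged from 25.92 to 70.45 FPKM there, and Fosl2 less widely, from 17.44 to 26.25 FPKM. The exceptions among the members in NP vehicle were Nr4a2 (0.11) and Egr3 (0.13), whose values under 1 FPKM this scale compresses.

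**Figure D4:**
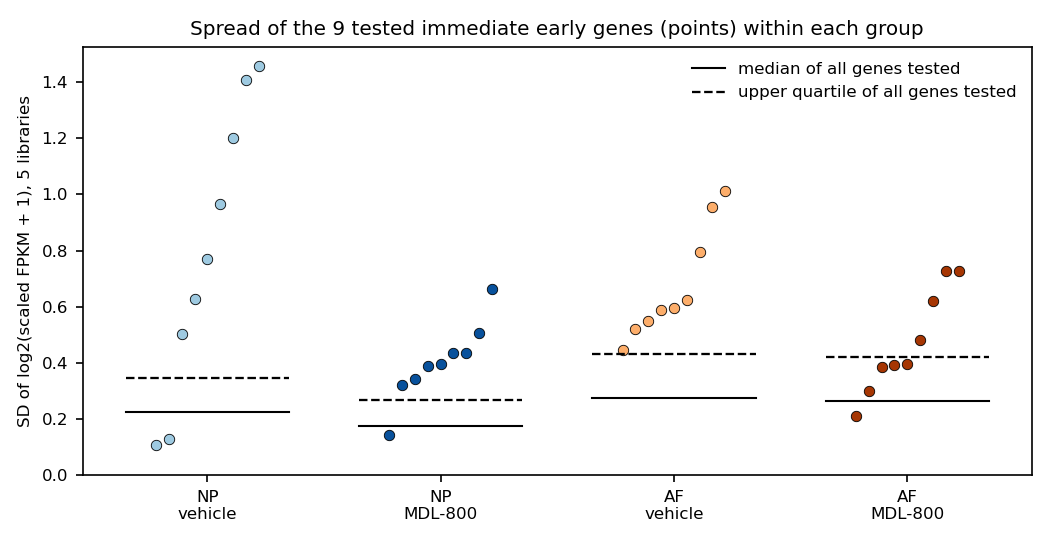
SD of log2(scaled FPKM + 1) over the 5 libraries of each group for the 9 tested members (points), with the median (solid line) and the upper quartile (dashed line) of all tested genes. In NP vehicle 7 points and in AF vehicle 9 points lie above the dashed line, and 4 do in AF MDL-800.

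The spread was shared between members. NP vehicle library 3 was the highest of its group for 8 of the 10 members and library 1 the lowest for 7. AF vehicle library 10 was likewise the highest for 8 and library 9 the lowest for 7. In AF MDL-800, library 29 was the highest for 6 members. NP MDL-800 was less uniform: libraries 15 and 18 were the highest for 4 each, and library 20 the lowest for 5. Across the 20 libraries, after centring on group means, all 36 pairs of tested members had a positive Pearson r, from 0.13 (Nr4a2 and Ier2) to 0.93 (Egr1 and Klf4), with a median of 0.56. Egr1 and Nr4a1 reached 0.91 and Dusp1 and Klf4 0.81. These correlations are descriptions over libraries that share scaling and GC dependence. Some lists of markers of other cells, though not most, were highest in some of these libraries. NP vehicle library 3 had the highest sums of skeletal muscle markers (1094 FPKM, against a group median of 81.7 and a lowest of 10.4 in library 1), fat cell markers (15.1 against a median of 6.09) and Schwann and nerve markers (130 against 124, with the lowest, 103, in library 1). Of these, Cidec, Plin1, Lep and Sox10 were under 1 FPKM in every NP vehicle library. Red blood cell, neutrophil, B and plasma cell, macrophage, bone and endothelial sums of NP vehicle were highest in library 6 instead. NP vehicle library 1 had the lowest NP marker sum (25620 FPKM against a median of 26260) and the highest AF marker sum (1561 against 990.3) of its group. AF vehicle library 10 had the highest Schwann and nerve sum of its group (1454 against a median of 506) and the lowest neutrophil sum (7221). AF MDL-800 library 29 had the highest muscle (8652 against 1225), fat (993 against 295) and bone sums (2444 against 2200). The remaining lists of these AF groups were highest in other libraries. The part of these cells in the shared spread was not tested.

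**Figure D5:**
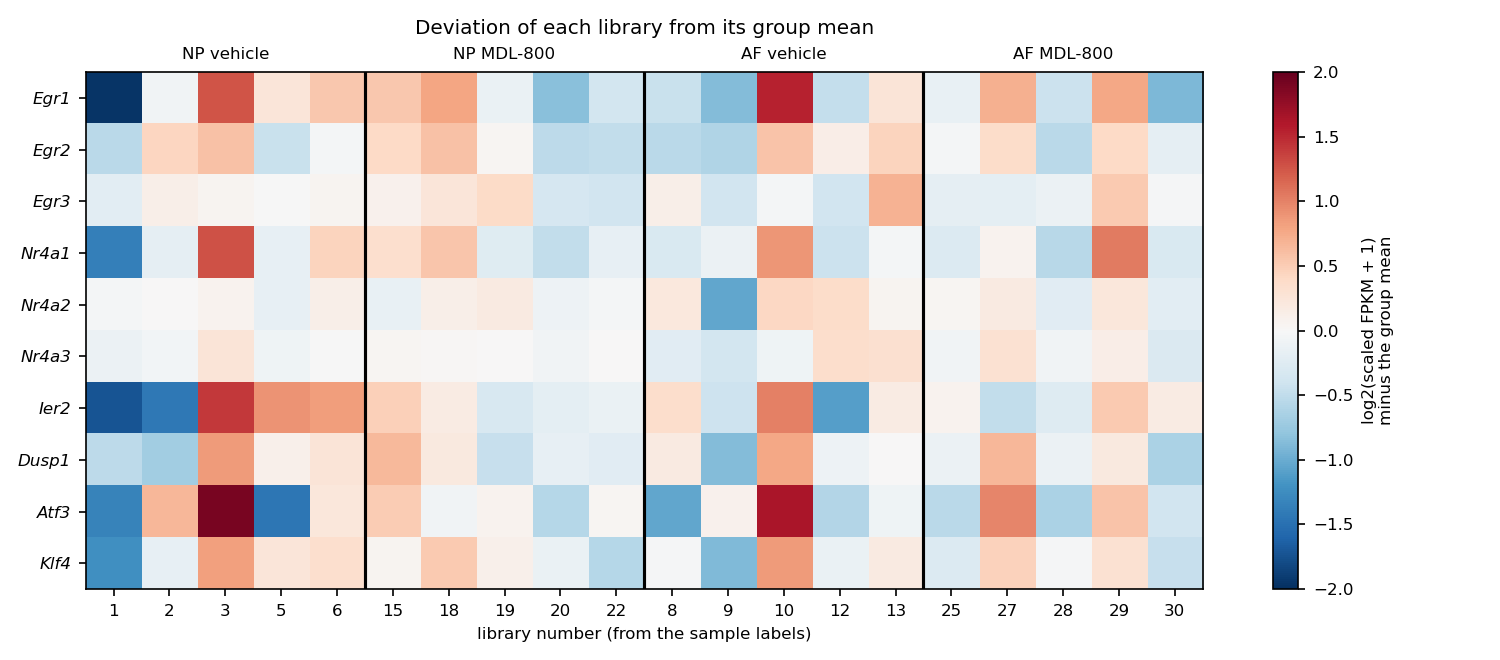
Deviation of each library from its group mean in log2(scaled FPKM + 1), for the 10 members (rows) in the 20 libraries (columns, by group). Libraries 3 and 10 are above the mean in nearly every row, and library 1 is below it.

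Genes outside the 10 were ranked by Pearson r with the mean of the tested members over the 20 libraries, centred on group means. The 10 most alike were Socs3 (0.897), a feedback inhibitor of cytokine signalling, Tle1 (0.889), Fos (0.884), Cd14 (0.874), Rhpn2 (0.872), Fosb (0.853), Tmem248 (0.851), Gm26532 (0.847), Rnd3 (0.844) and Ltbp4 (0.837). Within the 10 NP libraries these r were 0.795 to 0.947, and within the 10 AF libraries 0.737 to 0.958. The 6 tested AP-1 genes had a median r of 0.738, the 41 tested other early response genes 0.386, and the 21 upstream factors and kinases (such as Srf, Elk1 and Creb1) 0.003, against -0.011 over all other genes. A list of phosphatases, NAB corepressors and other feedback genes had a median r of 0.54. The medians of several marker lists were also above that of the early response genes: fat cell 0.546, Schwann and nerve 0.538, skeletal muscle 0.536, AF 0.462, macrophage 0.45 and endothelial 0.404.

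The AP-1 genes, whose products pair as Fos and Jun dimers, served as a companion list. Fos had means of 138 ± 138 FPKM in NP vehicle, 203 ± 121 in NP MDL-800, 104 ± 98.0 in AF vehicle and 134 ± 63.9 in AF MDL-800. With MDL-800 in NP none of the 6 tested was called: Fos was at 1.08 ± 0.75, Fosb at 1.42 ± 0.73, Jun at 0.65 ± 0.31 and Junb at 2.72 ± 0.47 (adjusted p = 0.0519, past the threshold in 4 of 19 alternatives). Junb lay at 1.54 to 13.6 FPKM in NP vehicle and at 43.0 to 59.2 FPKM in NP MDL-800 without overlap, and 3.5% of all genes were higher without overlap in this way. The lowest Junb value was in NP vehicle library 1. In MDL-800 mice 3 of 6 AP-1 genes were higher in NP than in AF, against 25.6% of all genes: Junb (1.29 ± 0.39), Jund (1.08 ± 0.13) and Jun (0.76 ± 0.24). The call of Jun was lost with all 4 groups in the fit (adjusted p = 0.0625). None was called between tissues in vehicle mice.

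Of the 41 tested other early response genes, 2 rose with MDL-800 in NP and none fell, against 0.232% of all genes that rose. Sik1, a salt-inducible kinase that restrains CREB coactivators, went from 37.1 ± 4.24 to 60.9 ± 7.19 FPKM (0.70 ± 0.10, adjusted p = 0.036). Gadd45g, a growth arrest and DNA damage gene, named after its values were seen, went from 0.992 ± 0.219 to 3.13 ± 0.596 FPKM (1.05 ± 0.13, adjusted p = 0.0166). The call of Sik1 stood in 10 of 19 alternatives and that of Gadd45g in 13 of 19, and both were lost with the GC trend removed. Their r with the mean of the members was -0.312 for Sik1 and 0.026 for Gadd45g. The median log2 difference of the 41 was 0.31 in NP and 0.14 in AF, where none was called. Between tissues in vehicle mice 7 of the 41 were higher in NP and 20 lower, against 21.8% and 33.9% of all genes. Higher were Sik1 (1.20 ± 0.16), Ier3 (1.15 ± 0.43, called in 11 of 20 alternatives) and the clock gene Per1 (1.12 ± 0.30), and lower were the G-protein regulator Rgs2 (-3.26 ± 0.31), the matricellular gene Ctgf (-2.32 ± 0.42) and the kinase Plk2 (-2.05 ± 0.30). In MDL-800 mice 13 were higher and 18 lower, against 25.6% and 37.2% of all genes, with the same 3 genes leading in each direction: Per1 (1.94 ± 0.33), Sik1 (1.71 ± 0.20) and Ier3 (1.63 ± 0.21), and Rgs2 (-3.32 ± 0.27), Ctgf (-2.01 ± 0.36) and Plk2 (-1.77 ± 0.25).

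The phosphatases, NAB corepressors and other feedback genes were mostly lower in NP. Of 14, 12 were called in each arm, 10 of them lower and 2 higher, against 55.7% of all genes called with vehicle (33.9% lower) and 62.8% with MDL-800 (37.2% lower). Spry1, an inhibitor of receptor tyrosine kinase signalling, was at 0.331 ± 0.173 FPKM in NP vehicle and 9.81 ± 2.76 FPKM in AF vehicle (-2.99 ± 0.19, adjusted p = 3.98e-06). Spry1 was under 1 FPKM in NP in both arms and passed the filter only through AF libraries, so its calls are given as a description. Spry2 (-2.02 ± 0.17) and the phosphatase Dusp10 (-1.38 ± 0.20) were lower as well. Nab2, the corepressor of EGR proteins, was higher in NP, at 16.9 ± 2.78 against 11.4 ± 1.47 FPKM with vehicle (0.52 ± 0.13, adjusted p = 0.00666) and 24.0 ± 2.38 against 12.0 ± 1.56 FPKM with MDL-800 (0.95 ± 0.11). Dusp5 was called higher in NP with MDL-800 (0.93 ± 0.18). None of the 14 was called between arms in either tissue.

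Among the 21 upstream factors and kinases, 3 were higher and 5 lower in NP with vehicle, and 5 higher and 7 lower with MDL-800. These 8 and 12 calls stand against 55.7% and 62.8% of all genes called. The kinase genes Mapk8 (0.87 ± 0.13) and Map2k1 (0.48 ± 0.12) and the ETS factor Elk1 (0.50 ± 0.11) were higher in vehicle NP. The SRF coactivator Mkl1 (-1.64 ± 0.27), Mapk14, which encodes a p38 kinase (-1.23 ± 0.19), and Atf1, a relative of CREB (-1.13 ± 0.11), were lower. None was called between arms.

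Calls among stress response genes and chaperones were made between tissues, where 55.7% of all genes were called with vehicle and 62.8% with MDL-800. Of 8 integrated stress response genes, 1 was higher and 2 lower in NP with vehicle, and 3 were higher and 3 lower with MDL-800, where Atf5 (0.99 ± 0.13) and Ddit3 (0.77 ± 0.18) were higher and the asparagine synthetase gene Asns (-1.59 ± 0.26) was lower. Of 7 inducible chaperones, 2 were higher in NP with vehicle, Hspb1 (1.52 ± 0.35) and Hspa1a (1.30 ± 0.30), and 3 were higher and 1 lower with MDL-800. The small heat shock gene Hspb1 was at 549 ± 145 FPKM in NP and 136 ± 56.0 FPKM in AF with MDL-800 (2.09 ± 0.30, adjusted p = 0.000142). None of either list was called between arms in NP or AF.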

How the data were processed

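The authors deposited 1 table of FPKM values, rounded to 2 decimals, for 51789 genes in 20 libraries. Per the labels' protocols, strand-specific libraries were made from total RNA depleted of ribosomal RNA. The build mm10 and STAR 2.7.11b are named in the submitters' processing notes; the counting program, the annotation and the use of strand are not given in the sources used here. FPKM is not a count, so no count model was used. Depth was estimated from 6641 single-exon genes, of whose values 78.6% to 84.1% lay within 0.15 of a whole step, and in simulations it was off by at most 1.25%.

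Values were divided by the median ratio over the 11308 genes that reached 1 FPKM in each of the 20 libraries (factors 0.933 to 1.06), and printed FPKM values are these scaled values. The test covered 16383 genes, those reaching 1 FPKM in 5 or more libraries; Nr4a3 was not among them. Each comparison was tested with limma 3.58.1 in R 4.3.3 (mean-variance trend, two-sided) on log2(scaled FPKM + 1) with only its 2 groups, and the difference of effects with all 4. P-values were adjusted by Benjamini-Hochberg over all tested genes, and a gene is called where this p is under 0.05. The method was tested on simulated data: at a change of 2 on the log2 scale, 190 of 200 genes drawn from all tested genes were found between arms of NP. Ratios within a library were computed in Python 3.11.15 and are given without a test; the ratios, the block and the leave-one-out of the spread were chosen after seeing the data. Alternatives were other scalings, pseudocounts, filters and fits, removal of each library's GC trend, and each library left out; the closing section gives their effect.

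The members and gene lists were chosen with earlier results of these data known. All members are named; of other lists, Fos, Fosb, Jun and Junb, and up to 3 called genes in each direction with the largest difference and a mean of at least 5 FPKM in the higher group. Coordinates are from GENCODE M21 (GRCm38), which holds 51596 of the 51789 identifiers, and promoters from RefSeq (GRCm38.p6).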

Additional observations from a re-analysis of the deposited data

Results flagged for a closer look

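In 4 of the 40 sets of 5 libraries (10 genes in 4 groups), the gap between the extreme library and its neighbour took up more of the range of log2(scaled FPKM + 1) than the critical ratio of 0.71; chance alone gives this in about 1 in 20 groups. Egr3 in AF MDL-800 stood apart in library 29 (ratio 0.777), at 2.41 FPKM against 1.09 to 1.33 FPKM in the other libraries. Nr4a2 in AF vehicle stood apart in library 9 (0.758), at 0.975 FPKM against 3.22 to 4.38 FPKM. The same library had the lowest AF marker sum (2527 FPKM) and the highest NP marker sum (15090.0 FPKM) of its group. Their part in the low Nr4a2 value was not tested. Without library 9, Nr4a2 was at -1.93 between NP and AF in vehicle mice (limma, adjusted p = 3.52e-06), and at -1.67 with it. Nr4a3 stood apart in NP vehicle library 3 (0.719), at 0.324 FPKM against 0.0214 to 0.0988 FPKM, and in NP MDL-800 library 20 (0.767), at 0.0106 FPKM against 0.0706 to 0.0896 FPKM, the latter on an estimated 1 fragment.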

How the results depend on the processing

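No member was called with MDL-800 in NP, in AF or for the difference between them under any alternative run. Over all genes, calls in NP under the alternatives that kept every library ranged from 4 (all 4 groups in the fit) to 74 (1 FPKM in at least 10 libraries), against 41 reported. Of the members' log2 differences, 497 of 540 leave-one-out values and 394 of 418 others kept direction and side of the threshold. Between NP and AF in MDL-800 mice the count of 5 fell to 3 with all 4 groups in the fit. No paired analysis was possible from the labels because NP and AF libraries share no replicate number there. The column names carry a further number that 5 vehicle pairs and 3 MDL-800 pairs share. Deviations correlated at -0.18 to 0.29 across genes within pairs, which cannot decide whether the number marks a mouse. No label gives the meaning of the number, so it is not taken as a pairing. With it as a replicate block, chosen after seeing the data, 3 members were called in MDL-800 mice and 4 in vehicle mice. In MDL-800 mice Egr3 (adjusted p = 0.088) and Atf3 (0.0604) then missed the threshold, and Dusp1 (0.0049) passed it in vehicle mice.

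Signs changed under other scalings: between NP and AF in vehicle mice Ier2 was at 0.03 (quantile) and 0.05 (upper quartile). In MDL-800 mice Nr4a1 was at 0.18 and 0.32 under the same scalings and 0.05 with the GC trend removed, and Klf4 at 0.01 and 0.19. Dusp1 with MDL-800 in AF was at -0.00039 with the GC trend removed. The difference of effects for Egr2 was at 0.01 (quantile) and 0.14 (pseudocount 0.1), and for Egr3 at 0.18 (pseudocount 0.1). The cause was not tested.

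Leaving out 1 library gave ranges that cross 0 for Egr2 with MDL-800 in NP (-0.02 to 0.28), and in AF for Nr4a2 (-0.22 to 0.14), Dusp1 (-0.19 to 0.21) and Klf4 (-0.04 to 0.39). Between tissues they did so for Ier2 (-0.63 to 0.16) and Atf3 (-0.02 to 0.87) in vehicle mice and Nr4a1 (-0.15 to 0.25) in MDL-800 mice. For the difference of effects this held for Egr1 (-0.18 to 0.63), Egr2 (-0.17 to 0.13), Egr3 (-0.22 to 0.08) and Nr4a2 (-0.24 to 0.13). Depth limits Nr4a3, Egr3, Egr2 and Nr4a2 in NP, with an estimated 1 to 98 fragments per library.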

Other observations

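The second number in the column names, whose meaning is not given, is shared by pairs of NP and AF libraries. NP vehicle library 3 and AF vehicle library 10, each the highest of its group for 8 of the 10 members, share the number 10. NP MDL-800 library 20 and AF MDL-800 library 28 share the number 37, and all 9 tested members lay below the group mean in both. For NP vehicle library 5 and AF vehicle library 12, which share the number 12, 3 of 9 members lay on the same side of the group mean.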
